A study of Mus musculus with 21 samples.

Results

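The 44 genes described here carry the Wnt signal from outside the cell to the nucleus. They comprised 19 Wnt ligands, 12 receptors (10 Frizzled genes with the co-receptors Lrp5 and Lrp6), 9 secreted inhibitors (Sfrp1, Sfrp2, Sfrp4, Sfrp5, Dkk1, Dkk2, Dkk3, Dkk4 and Wif1) and 4 transcription factors (Lef1, Tcf7, Tcf7l1 and Tcf7l2). They were picked by a rule on gene symbols, out of 30161 genes on the arrays, and each gene was read through its brightest probe. The set was chosen with earlier results of these data known. A filter on dim probes, which required 4 or more of the 21 arrays to show the probe well above background, kept 38 of the 44, and 23514 of all genes.

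Wnt proteins are secreted, lipid-modified ligands that bind Frizzled receptors together with Lrp5 or Lrp6. In the canonical branch this stops the destruction of β-catenin, which then acts with Lef1 and the Tcf factors on target genes, while other ligands such as Wnt5a act mainly through branches that do not need β-catenin. Sfrp proteins and Wif1 bind the ligands themselves, and Dkk1, Dkk2 and Dkk4 bind Lrp5 and Lrp6. In the liver, ligands released by endothelial cells of the central vein, among them Wnt2 and Wnt9b, with the amplifier Rspo3, keep the hepatocytes around that vein in their perivenous state.

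The study compared liver tumours of mice that lack Trp53, the gene of the tumour suppressor p53, with tumours of chemically treated wild-type mice, and each with untreated liver. All mice were C57BL/6J and lived in a pathogen-free facility. The DEN tumours (7 tumours of 5 mice, labelled HCC) came from Trp53 wt mice injected intraperitoneally at day 15 with 10 µg of N-nitrosodiethylamine (DEN, a carcinogen) per g of body weight. The KO tumours (6 tumours of 5 mice, labelled HCC/CCC) and the KO livers (4 mice) were from untreated Trp53 ko mice, and the WT livers (4 mice) from untreated Trp53 wt mice. Tumours whose titles share the number in front of the T were taken to be from 1 mouse and averaged, which left 18 mice. The sources used here do not give the part of Trp53 removed, the cells it was removed from, or the sex and age of the mice.

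A level below is the log2 of the array's processed intensity minus the 75th percentile of that array, so that 0 is the 75th percentile and 1 unit is a doubling, and a change is the difference between 2 group means of such levels, with its standard error (SE). A call means an adjusted p under 0.05 in limma's moderated test over all 23514 genes (Benjamini-Hochberg adjustment within each of 5 comparisons), and p-values reflect the spread between mice. The 75th percentile lay between 951.5 and 4258 intensity units in the KO tumours and between 475.8 and 884 in the other groups, and 51% to 82.3% of probes were well above background. Each group lay on slides of its own. Scan day 1 held all 4 KO livers with the KO tumours of mice 1, 2 and 3 and 3 DEN tumours (mice 1, 4 and 5), and the WT livers had a scan day to themselves, so day-1 values exist only for comparisons without WT livers. Trp53 itself was at -3.57 on average in WT livers and -2.65 in DEN tumours, against -5.57 in KO livers and -4.71 in KO tumours, with no overlap between Trp53 wt and ko mice. Whether its probe lies in the removed part is not known. The 10 hepatocyte markers were well above background on every array, but their mean level was 1.35 to 4.73 in KO tumours against 6.1 to 6.61 in DEN tumours and 7.12 to 7.5 in the livers.

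In the KO tumours 5 secreted inhibitors rose, among them Dkk2, Sfrp1 and Sfrp4, together with 6 ligands, led by Wnt10a, 3 Frizzled receptors and Lef1, while Fzd4, Fzd8, Wnt5b, Wnt9b and Wnt16 fell. Against KO livers, 20 of the 38 tested genes were called (52.6%, beside 51.2% of all genes), 15 higher (21.6% of all genes were called higher) and 5 lower (29.6% of all genes). The median change over the 38 was 0.69, beside -0.22 over all genes. When the slide was fitted as a random block, with each array as a sample, 11 of the 20 passed, 9 higher and 2 lower. Over all 23514 genes, 6664 were called in that setting, 2854 higher and 3810 lower.

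In the DEN tumours Fzd3, Wnt1, Lrp5 and the brightest probe of Tcf7l2 rose, and Dkk4, Wnt9a, Wnt5b, Wnt9b, Fzd4, Fzd7 and Fzd8 fell. Against WT livers, 11 of 38 were called (28.9%, beside 21.6% of all genes), 4 higher (10.6% of all genes) and 7 lower (11% of all genes), with a median change of -0.21 against 0.045 over all genes. In the direct comparison of the tumours, KO against DEN, 26 of 38 were called (68.4%, beside 57.4%), 17 higher in KO tumours (19.9% of all genes) and 9 lower (37.5% of all genes), with a median of 0.72 against -0.33; 18 of these, 13 higher and 5 lower, passed with the slide as a random block. The livers themselves differed in 3 of 38 (7.89%, beside 8.52%), all lower in KO livers (6.68% of all genes were called lower and 1.85% higher). With the slide as a random block none of the 11 DEN calls and none of the 3 liver calls passed (adjusted p from 0.10 to 0.58 and from 0.69 to 0.77). Over all 23514 genes that setting called 422 in DEN tumours and 11 between the livers, and 9167 between the tumours (2901 higher and 6266 lower).

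Whether the step from liver to tumour differed between the KO and the DEN mice was tested as the difference of both changes. It was called for 16 of 38 (42.1%, beside 31% of all genes), in 13 with a higher value in the KO arm (12.7% of all genes) and in 3 with a lower one (18.3% of all genes), with a median of 1.13 against -0.25. Of the 16, 15 did not pass with the slide as a random block (adjusted p from 0.068 to 0.40), where 810 of all 23514 genes were called. KO tumours enter the first comparison, the direct one and this one, so the 3 counts are not independent of each other.

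**Figure D1:**
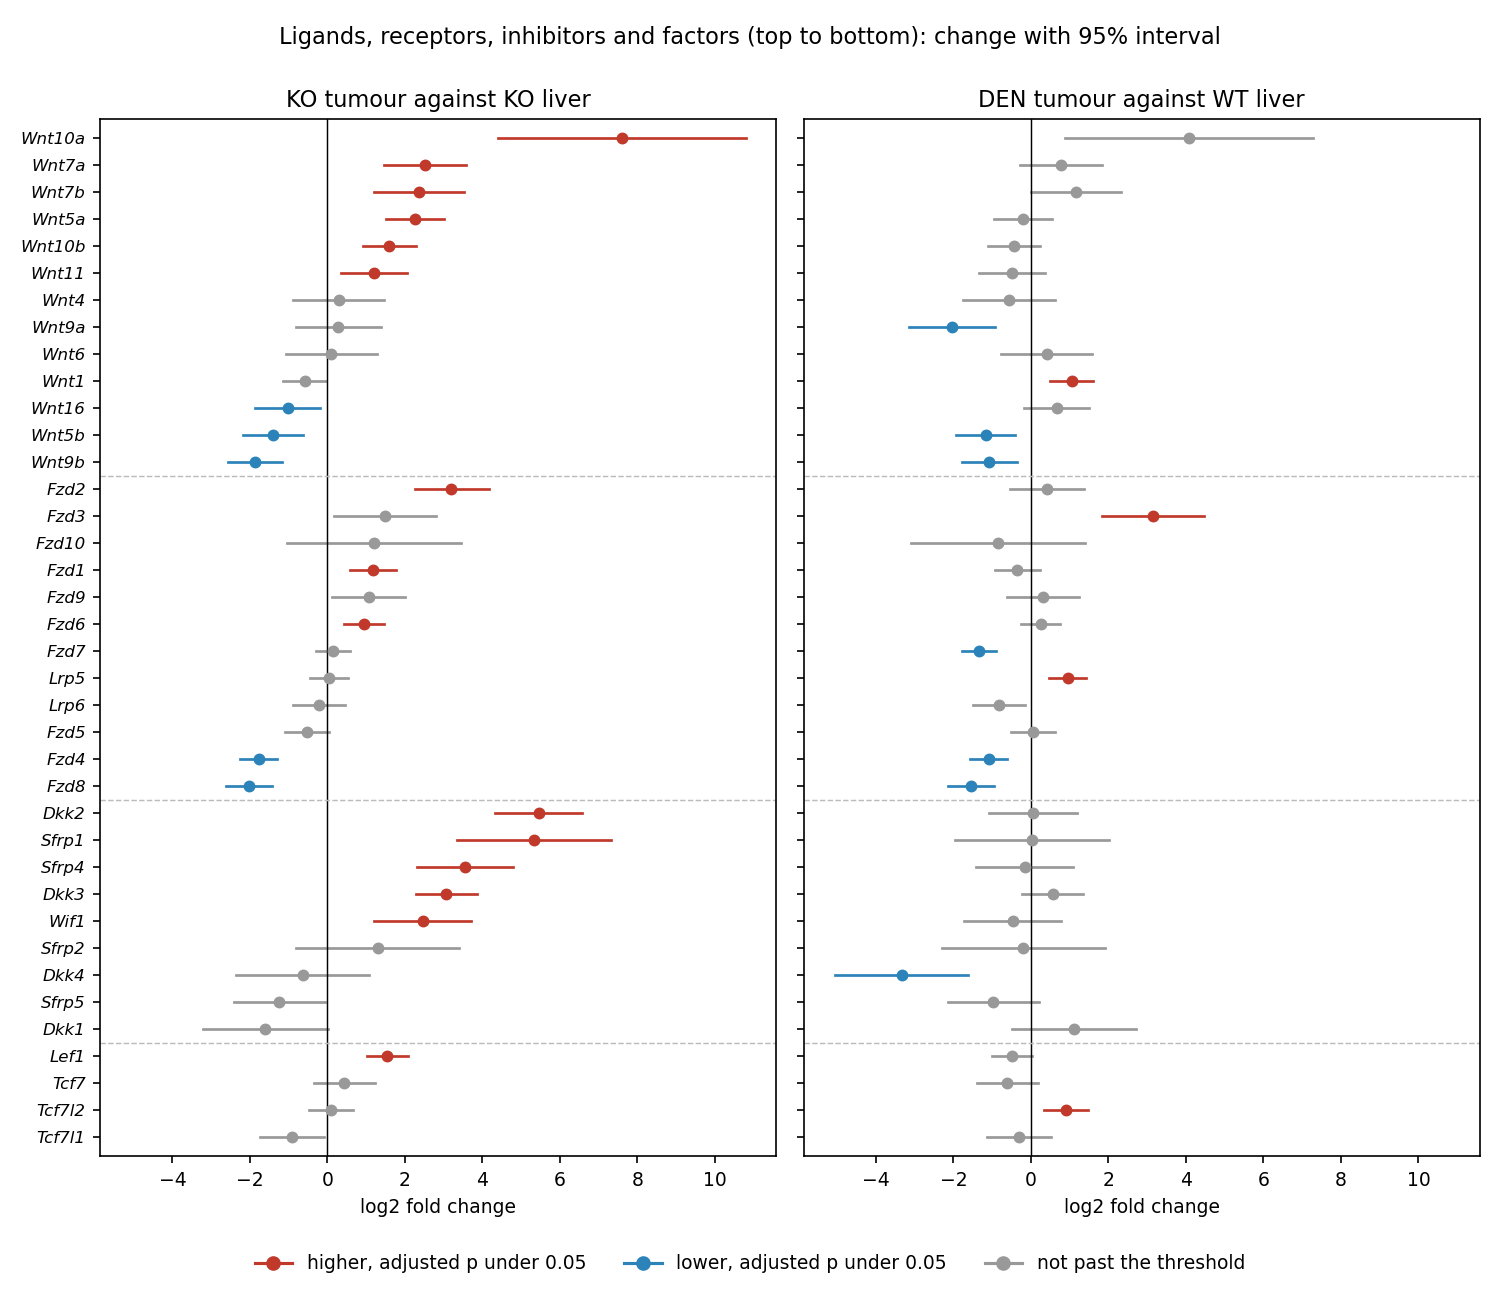
Log2 change of each of the 38 tested genes, with its 95% confidence interval from limma, in KO tumours against KO livers (one panel) and DEN tumours against WT livers (the other). The longest bars to the right are Wnt10a, Dkk2, Sfrp1 and Sfrp4 in the KO panel, with changes of 7.59, 5.45, 5.33 and 3.54. In the DEN panel Wnt10a has a wide interval, from 0.88 to 7.28, and did not pass the adjusted threshold.

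Secreted inhibitors: 5 of 9 rose in KO tumours against KO livers and none fell, with a median change of 2.46. Against DEN tumours 5 were higher and 1 lower, with a median of 3.41. Over all genes, 21.6% were called higher and 29.6% lower against KO livers, and 19.9% and 37.5% against DEN tumours. Without the KO tumour arrays, Dkk2, Sfrp2, Sfrp4 and Wif1 would not have passed the filter, nor Fzd9, Fzd10, Wnt6 and Wnt7a. Dkk1 passed through DEN tumour arrays alone, and Dkk4 needed the WT liver arrays. The place of these genes in the counts by role thus depended on the group where they were detected. In DEN tumours against WT livers none rose and Dkk4 fell. With a random slide block, 4 rises against KO livers and 5 against DEN tumours passed, and no fall passed. Dkk2, which binds the Lrp co-receptors (chromosome 3, probe at chr3:131842357-131842416 in mm9), was at -0.73, -0.39, -0.80, -3.16 and -1.76 in the KO tumours of mice 1 to 5. In DEN tumours it was at -8.10, -7.66, -6.48, -7.69 and -5.57. KO livers gave -6.88, -6.57, -6.49 and -7.32, and WT livers -7.15, -7.34, -6.85 and -7.27. The probe was well above background on all 6 KO tumour arrays and on none of the 8 liver arrays, and 1 of the 7 DEN tumour arrays, so every KO tumour mouse lay above every other mouse. The change was 5.45 (SE 0.53, adjusted p = 5.8e-07, at least 10.1-fold) against KO livers and 5.73 (SE 0.50, adjusted p = 4.3e-07) against DEN tumours. A bound of this kind replaces the fold wherever the lower group was not well above background on any of its arrays, and sets the higher group's mean against the dimmest level still measured there. The difference of the tumour effects for Dkk2 was 5.40 (SE 0.75, adjusted p = 0.00015), and it was the one call of that comparison that also passed with the slide as a random block.

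Sfrp1, a soluble decoy that shares the ligand-binding domain of the Frizzled receptors (chromosome 8, probe at chr8:24559438-24559497 in mm9), was at -0.28, 0.45, 0.30, -1.83 and -0.20 in KO tumours. The DEN tumours spread widely, at -6.83, -1.74, -7.88, -5.88 and -4.45. Sfrp1 in KO livers was at -5.10, -5.55, -6.66 and -5.27, and in WT livers at -5.84, -4.70, -6.93 and -4.05. KO tumours and livers did not overlap, whereas DEN mouse 2, at -1.74, reached the range of the lowest KO tumour. The rise was 5.33 (SE 0.94, adjusted p = 0.00017, at least 20.9-fold) against KO livers and 5.04 (SE 0.89, adjusted p = 0.00019) against DEN tumours.

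Sfrp4, a decoy of the same family (chromosome 13, probe at chr13:19724488-19724547 in mm9), was at -0.28, -2.47, -1.51, -3.50 and -2.48 in KO tumours and at -7.21, -5.34, -5.32, -6.22 and -6.57 in DEN tumours. Its livers lay with the DEN tumours, at -6.28, -4.89, -4.69 and -6.49 (KO) and -5.85, -5.15, -6.28 and -6.60 (WT). No KO tumour mouse overlapped any other group. Sfrp4 changed by 3.54 (SE 0.59, adjusted p = 9.4e-05, at least 6.29-fold) against KO livers and by 4.08 (SE 0.55, adjusted p = 2.1e-05) against DEN tumours. Sfrp2, from the same family, was called in no comparison: its KO tumours ran from -8.93 to -1.81, wider than any other group of that gene.

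Dkk3, a divergent Dkk protein that is not a typical blocker of Lrp6 (chromosome 7, probe at chr7:119259556-119259615 in mm9), was the one inhibitor well above background on all 21 arrays. Its levels were 3.75, 4.12, 4.07, 2.81 and 4.03 in KO tumours, -0.35, 1.75, -0.25, 0.21 and 0.34 in DEN tumours, 0.57, 0.86, 0.53 and 0.79 in KO livers, and -0.22, 0.20, -0.79 and -0.06 in WT livers. All 5 KO tumour mice lay above every other mouse, mouse 4 lowest among them and DEN mouse 2 next below. Dkk3 rose by 3.06 (SE 0.37, adjusted p = 4.4e-06) against KO livers and by 3.41 (SE 0.35, adjusted p = 1.7e-06) against DEN tumours.

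Wif1, which binds Wnt ligands outside the cell (chromosome 10, probe at chr10:120537079-120537138 in mm9), was at -4.24, -3.96, -3.92, -1.03 and -4.37 in KO tumours and at -7.68, -7.26, -7.96, -7.51 and -6.71 in DEN tumours. In KO livers it was at -6.89, -6.56, -4.66 and -5.72, and in WT livers at -7.00, -7.24, -6.28 and -7.31. KO tumours lay above all other mice, but by little against KO liver mouse 3, and the mean was raised by KO mouse 4. The change was 2.46 (SE 0.59, adjusted p = 0.0023, at least 2.3-fold) against KO livers and 3.92 (SE 0.56, adjusted p = 3e-05) against DEN tumours. The call against KO livers was lost with normexp background correction and quantile scaling (0.54, adjusted p = 0.057), with the slide as a random block (2.31, adjusted p = 0.19) and with the scan day as a block (1.92, adjusted p = 0.10). Within scan day 1 alone it was 1.92 (adjusted p = 0.0066). The difference of the tumour effects for Wif1 (2.93) was lost with normexp and quantile scaling (0.56, adjusted p = 0.20) and with each tumour as a sample (2.78, adjusted p = 0.072).

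Dkk4 and Dkk1, both blockers of Lrp5 and Lrp6, went the other way. Dkk4, itself a known target of the pathway, was at -2.47, -2.40, -3.87 and -3.90 in WT livers. It was at -5.55, -6.34, -6.54 and -7.36 in KO livers, at -7.03, -7.62, -7.54, -4.41 and -5.90 in DEN tumours, and at -7.80, -9.14, -8.03, -4.73 and -5.74 in KO tumours. WT livers lay above all other mice, and the remaining 3 groups overlapped. Dkk4 fell by 3.34 (SE 0.82, adjusted p = 0.0077) in DEN tumours against WT livers, and by 3.29 (SE 0.86, adjusted p = 0.027, at least 2.91-fold) in KO livers against WT livers. The liver call was lost when any of 6 mice was left out (KO mice 2, 3 and 4 and WT mice 1, 2 and 3; -3.52 to -2.98, adjusted p up to 0.08), and both calls with the slide as a random block (adjusted p = 0.69 between livers and 0.26 in DEN tumours). Between the tumours Dkk4 was not called with all days pooled (-0.59), but within scan day 1 it was lower in KO tumours by -3.01 (adjusted p = 0.016). Its probe was well above background on 1 of 6 KO tumour arrays and 2 of 7 DEN tumour arrays, so that value largely compares levels at background. At background, the level printed is lower where the array's 75th percentile is higher, as it was in KO tumours.

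Dkk1 was well above background in DEN tumours only, on 4 of 7 arrays, with levels of -7.94, -5.09, -2.54, -6.78 and -6.22. KO tumours were at -8.84, -9.03, -8.88, -6.75 and -8.02, KO livers at -6.73, -6.48, -6.40 and -7.22, and WT livers at -6.85, -7.09, -6.66 and -6.70. DEN mice 2, 3 and 5 lay above all mice of the other groups, and DEN mice 1 and 4 within the range of the KO tumours. Between the tumours Dkk1 was lower in KO by -2.59 (SE 0.72, adjusted p = 0.0058, at least 1.53-fold). That value was -1.38 (adjusted p = 0.017) within scan day 1 and -0.18 (adjusted p = 0.13) with normexp and quantile scaling, and its adjusted p was 0.05 with the slide as a random block. Against KO livers, where neither group was well above background on any array, it was -1.6 and not called, but -2.21 (adjusted p = 0.0008) within scan day 1. Both values compare levels at background, so no change of Dkk1 is read from them. Sfrp5 was not called in any comparison with all days pooled and mice as samples (means -3.44 in WT livers, -3.65 in KO livers, -4.41 in DEN tumours and -4.89 in KO tumours), but it fell against KO livers within scan day 1 (-1.48, adjusted p = 0.0012) and with each tumour as a sample (-1.41, adjusted p = 0.042), and also without KO tumour mouse 4 (-1.84, adjusted p = 0.00052).

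**Figure D2:**
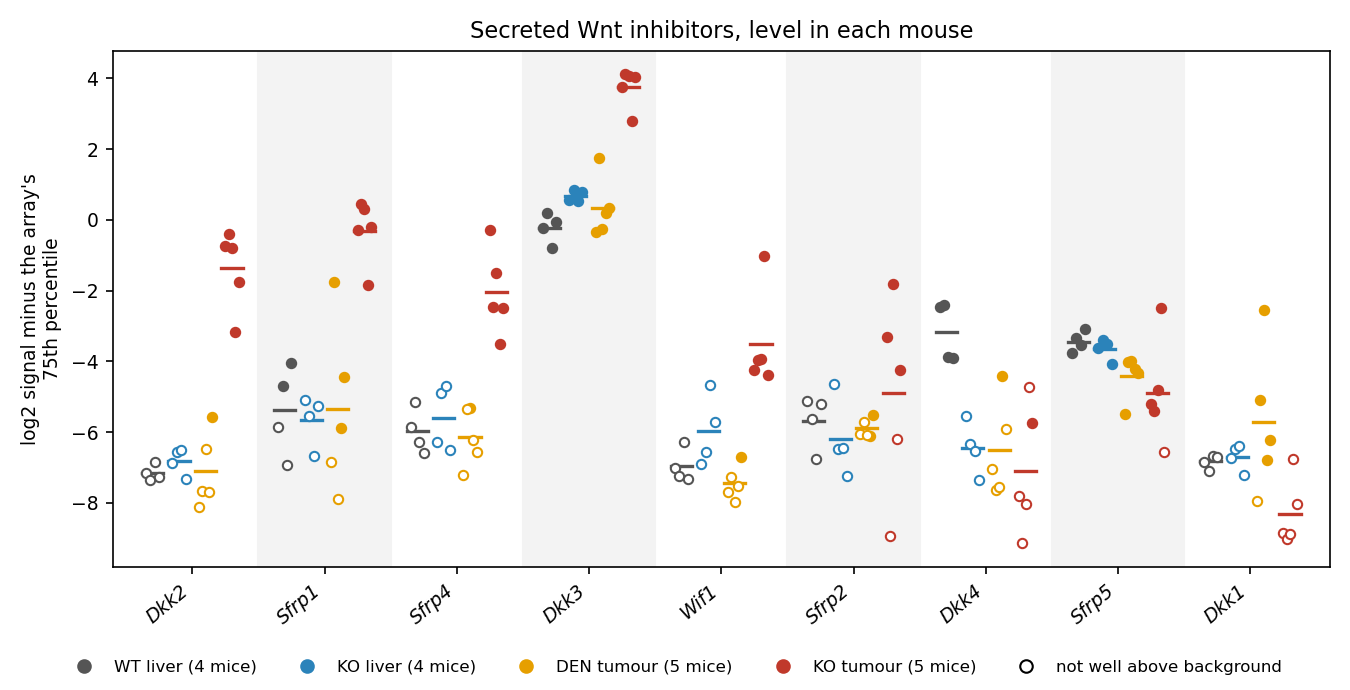
Level of each of the 9 secreted inhibitors (log2 intensity relative to the array's 75th percentile) in every mouse, by group; filled points were well above background on at least 1 array of the mouse, open points on none, and the line is the group mean. KO tumours sit above all other mice for Dkk2, Dkk3, Sfrp4 and Wif1, and WT livers above all others for Dkk4.

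Within scan day 1, where slide and group still coincide but the day does not differ, the changes against KO livers were 6.18 for Dkk2, 4.17 for Sfrp4, 3.29 for Dkk3 and, against DEN tumours, 6.77, 5.23 and 4.09 (adjusted p at most 0.00031 for each of these 6). For Sfrp1 the day-1 change against DEN tumours was 6.10 (adjusted p = 4.7e-05), and for Wif1 it was 4.00 (adjusted p = 0.00022). Dkk2, Sfrp1, Sfrp4 and Dkk3 kept their call against KO livers with the slide as a random block.

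Markers of some other cell types were also higher in KO tumours. Over all genes 21.6% were called higher and 29.6% lower against KO livers, and 19.9% and 37.5% against DEN tumours. Of 12 stellate cell and fibroblast markers, 8 were higher and 1 lower in KO tumours against KO livers, and 9 were higher and 1 lower against DEN tumours. The mean level of that list ranged from 0.64 to 2.04 in KO tumours and from -1.20 to 1.49 in DEN tumours, and KO livers ranged from -0.35 to -0.025 and WT livers from -1.01 to -0.048. Against KO livers all 10 bile duct markers were higher in KO tumours, and against DEN tumours 6 of 10 (mean level from -1.32 to 1.83 in KO tumours, -2.40 to -1.07 in DEN tumours, and for KO and WT livers -3.50 to -3.05 and -3.46 to -2.94), with Krt7, Cldn4 and Muc1 not well above background on any KO liver array. Of 12 T and NK cell markers, 7 were higher and 1 lower against KO livers (mean level -1.35 to 0.10 in KO tumours and -2.72 to -2.12 in KO livers). Against KO livers, of 10 macrophage markers 4 were higher and 5 lower. Of 6 B and plasma cell markers 2 were higher, and of 4 mesothelial and 4 smooth muscle markers 1 each. Against DEN tumours 5 of the 6 B and plasma cell markers were higher and none lower (median change 1.68). In that comparison 2 of 4 mesothelial markers were higher, and of the macrophage markers 5 were higher and 2 lower. Smooth muscle markers had 1 higher and 1 lower. Among KO tumours, mouse 4 had the lowest stellate and bile duct levels (0.64 and -1.32). It was also lowest for Dkk2, Sfrp1, Sfrp4 and Dkk3, but highest for Wif1 (-1.03). The part of these cells in the inhibitor levels was not tested, and in bulk tissue fewer cells of a type and less RNA per cell cannot be told apart.

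The promoters of the members with the largest called changes between KO tumours and another group are shown because these members were the furthest apart between the groups. RefSeq windows are given for Dkk2, Wif1 and Fzd10, all higher in KO than in DEN tumours; Wnt10a, Sfrp1 and Sfrp4 have no entry in the table used. Each sequence is the 250 bases before the annotated start (GRCm38.p6, plus strand, 5′ to 3′). Capitals mark CTTTG, the core that Tcf and Lef factors recognise, or its reverse complement CAAAG. The windows lie at chr3:132085042-132085291 (Dkk2), chr10:121033754-121034003 (Wif1) and chr5:128600856-128601105 (Fzd10).
Dkk2: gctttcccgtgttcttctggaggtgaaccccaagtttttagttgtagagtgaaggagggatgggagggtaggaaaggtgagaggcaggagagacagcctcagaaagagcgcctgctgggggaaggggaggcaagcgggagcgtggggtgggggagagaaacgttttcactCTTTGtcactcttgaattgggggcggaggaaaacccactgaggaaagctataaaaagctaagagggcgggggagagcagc
Wif1: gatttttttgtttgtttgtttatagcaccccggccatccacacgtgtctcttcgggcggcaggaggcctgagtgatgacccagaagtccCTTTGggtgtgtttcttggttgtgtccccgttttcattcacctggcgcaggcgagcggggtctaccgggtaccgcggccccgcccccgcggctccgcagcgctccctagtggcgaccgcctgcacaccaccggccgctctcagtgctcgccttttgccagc
Fzd10: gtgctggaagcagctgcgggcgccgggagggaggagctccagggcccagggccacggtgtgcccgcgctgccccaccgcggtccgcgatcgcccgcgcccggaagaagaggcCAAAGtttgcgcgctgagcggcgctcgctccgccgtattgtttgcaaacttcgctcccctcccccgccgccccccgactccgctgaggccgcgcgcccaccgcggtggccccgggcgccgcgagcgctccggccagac
Each window held 1 match, beginning 80 bases before the start in Dkk2 and 161 in Wif1 on the plus strand, and 138 in Fzd10 on the minus strand. None of the 3 held the longer form CTTTGAT. Searched on both strands, CTTTG was in 48.6% of all 32851 windows of this length and in 52.6% of the 38 windows of member genes (30 of the 44 genes have one), and CTTTGAT, which contains it, in 3.21% and 5.26%. GC content was 55.6% for Dkk2, 62.8% for Wif1 and 76.4% for Fzd10.

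Ligands: 13 of 19 passed the filter. Of these, 6 rose and 3 fell in KO tumours against KO livers (median 0.29), 1 rose and 3 fell in DEN tumours against WT livers (median -0.21), and 5 were higher and 3 lower in KO than in DEN tumours (median 0.51). Beside them, 21.6% of all genes were called higher and 29.6% lower against KO livers. In DEN tumours these shares were 10.6% and 11%, and between the tumours 19.9% and 37.5%. Fitting the slide as a random block left 2 of the rises and none of the falls against KO livers, none of the DEN calls, and 3 higher and 3 lower between the tumours. Wnt2, Wnt2b, Wnt3, Wnt3a, Wnt8a and Wnt8b did not pass. Wnt2, one of the central vein ligands, was well above background on 2 KO liver arrays and 1 KO tumour array, Wnt3a on none, and the other 4 on 1 to 3 arrays each.

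Wnt10a, a canonical ligand, had the largest change of the 38 tested genes and the largest spread between DEN tumours (chromosome 1, probe at chr1:74850633-74850692 in mm9). In KO tumours it was at 0.92, 1.32, 1.26, 0.36 and 0.73. DEN tumours were at -5.33, 4.54, -4.78, -4.42 and 0.85, KO livers at -7.11, -6.73, -6.63 and -6.21, and WT livers at -7.23, -7.00, -5.61 and -3.80. All KO tumours lay above all livers, in a narrow range. DEN mouse 2 was above every KO tumour and DEN mouse 5 within their range, while DEN mice 1, 3 and 4 lay within the range of the WT livers. Wnt10a rose by 7.59 (SE 1.51, adjusted p = 0.0005, at least 49.2-fold) in KO tumours against KO livers. It did not pass in DEN tumours against WT livers (4.08, SE 1.51, adjusted p = 0.065) or between the tumours (2.75, SE 1.43, adjusted p = 0.11), and the difference of the tumour effects was 3.51 (SE 2.14, adjusted p = 0.22). Without DEN mouse 2 both were called, at 4.34 (adjusted p = 0.0017) between the tumours and 5.10 (adjusted p = 0.014) for the difference; without DEN mouse 1, 3 or 4 the change in DEN tumours was called (4.73 to 4.96, adjusted p from 0.027 to 0.043). With the slide as a random block the KO change was 7.56 (adjusted p = 0.088).

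The value of DEN mouse 5 hid the largest gap between any pair of tumours from 1 mouse. Its tumours were at -4.48 and 6.17 for Wnt10a, 10.66 apart, where the median gap over the 38 genes was 0.72. For Sfrp1 the order was reversed, -2.56 in the tumour with low Wnt10a and -6.34 in the one with high Wnt10a, and Wnt9b was at -1.99 and -5.11. The tumours of DEN mouse 5, like those of DEN mouse 4, lay on different slides and scan days, whereas those of KO mouse 5 shared a slide and a day. DEN mouse 4, by comparison, had Wnt10a at -4.65 and -4.19, with a median gap of 0.85 and its largest gap, 2.71, in Dkk1. The tumours of KO mouse 5 were at 0.45 and 1.01 for Wnt10a, with a median gap of 0.53 and the largest, 3.73, in Wif1 (-2.51 and -6.24). Wnt6, whose probe lies 19.1 kb from that of Wnt10a, was between -6.20 and -4.86 in KO tumours and changed by 0.10 against KO livers, which was not called.

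Wnt5a, the main non-canonical ligand, ran from -1.74 to 0.34 in KO tumours, from -3.54 to -3.12 in KO livers, from -3.01 to -2.05 in DEN tumours and from -2.92 to -1.85 in WT livers. KO tumours overlapped neither KO livers nor DEN tumours. Wnt5a rose by 2.25 (SE 0.36, adjusted p = 5.8e-05) against KO livers and by 1.51 (SE 0.34, adjusted p = 0.0012) against DEN tumours, and the latter was 2.54 (adjusted p = 0.0022) within scan day 1. Wnt7a and Wnt7b, canonical ligands of epithelia, rose against KO livers by 2.52 (SE 0.50, adjusted p = 0.00044, at least 1.43-fold) and 2.36 (SE 0.55, adjusted p = 0.0018, at least 1.72-fold). Wnt7a was also higher than in DEN tumours, by 2.0 (SE 0.47, adjusted p = 0.0018), a value that was 3.42 (adjusted p = 0.00023) within scan day 1. Its probe was well above background on 4 of 6 KO tumour arrays, 3 of 7 DEN tumour arrays and no liver array. The values between the tumours thus partly rest on levels at background. For Wnt7b, whose groups overlapped, the call against KO livers was lost with the slide as a random block (2.41, adjusted p = 0.057).

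Wnt10b, a canonical ligand whose probe lies 21.9 kb from that of Wnt1, was dim throughout. It was at -4.52, -5.07, -4.64, -5.47 and -5.23 in KO tumours and at -6.65, -6.34, -6.25 and -7.11 in KO livers. DEN tumours gave -5.97, -4.42, -5.59, -5.73 and -5.80, and WT livers -5.65, -5.15, -4.99 and -4.46. KO livers were the lowest group and overlapped no other. The probe was not well above background on any KO liver array, on 1 of 4 WT liver arrays and on 4 of 6 KO tumour arrays, and the bounds came out under 1, so no fold is given. Wnt10b rose by 1.6 (SE 0.32, adjusted p = 0.00054) in KO tumours against KO livers and was lower by -1.53 (SE 0.34, adjusted p = 0.013) in KO than in WT livers. With the slide as a random block both calls were lost (adjusted p = 0.079 and 0.77), and the liver call also with normexp and quantile scaling (-0.095, adjusted p = 0.16) and with each tumour as a sample (adjusted p = 0.13). Between the tumours Wnt10b was not called with all mice and days pooled (0.51), but was higher in KO tumours by 1.93 (adjusted p = 0.0015) within scan day 1 and by 0.78 (adjusted p = 0.018) without DEN mouse 2. Wnt11, a ligand of the non-canonical branch, was higher in KO tumours by 1.21 (adjusted p = 0.019) against KO livers and by 0.97 (adjusted p = 0.037) against DEN tumours, with overlap in both. The first call was lost with normexp and quantile scaling (0.38, adjusted p = 0.05) and without KO liver mouse 4 or KO tumour mouse 3, and the other without any of 5 mice (DEN mice 1 and 5 and KO tumour mice 1, 2 and 3; adjusted p up to 0.11). The difference of the tumour effects for Wnt11 was lost without any of 8 mice (DEN mice 1 and 5, KO liver mice 1 and 4, KO tumour mice 1 and 3 and WT mice 3 and 4), and all its calls with the slide as a random block (adjusted p from 0.11 to 0.23). Wnt4 was higher in KO than in DEN tumours by 1.64 (SE 0.53, adjusted p = 0.014), with overlap, a call lost with the slide as a random block (adjusted p = 0.087).

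Wnt9b, the other central vein ligand among the members, was lower in all 4 comparisons of groups (chromosome 11, probe at chr11:103588882-103588941 in mm9). It was at -1.80, -2.72, -2.32 and -2.16 in WT livers, at -4.26, -4.13, -4.36 and -3.72 in KO livers, at -4.26, -3.50, -2.58, -2.71 and -3.55 in DEN tumours and at -5.47, -5.98, -5.76, -6.81 and -5.91 in KO tumours. KO tumours lay below all other mice, and WT livers above all others except DEN mice 3 and 4, which lay within their range. The probe was well above background on all 4 WT liver and all 7 DEN tumour arrays. In KO livers it was so on 2 of 4 arrays and in KO tumours on 4 of 6. The changes that use KO tumours thus partly rest on levels at background, which print lower in that group. The changes were -1.86 (SE 0.35, adjusted p = 0.0046) in KO against WT livers, -1.87 (SE 0.33, adjusted p = 0.00017) in KO tumours against KO livers, -1.07 (SE 0.33, adjusted p = 0.030) in DEN tumours against WT livers, and -2.67 (SE 0.31, adjusted p = 5.5e-06) between the tumours. The DEN call was lost without any of 6 mice (DEN mice 1, 2 and 5 and WT mice 1, 3 and 4; -1.09 to -0.83, adjusted p up to 0.098). With the slide as a random block the first 3 calls were lost (adjusted p = 0.77, 0.088 and 0.58), with each tumour as a sample the liver and DEN calls (adjusted p = 0.11 and 0.25), and the KO call also with normexp and quantile scaling (-0.22, adjusted p = 0.11). Between the tumours the value was -1.36 (adjusted p = 0.0083) within scan day 1 and -1.16 (adjusted p = 0.11) with the day as a block.

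Wnt5b fell in both tumour types. It was at 0.80, 0.74, 0.92 and 1.0 in WT livers and at 1.0, 1.32, 1.25 and 0.78 in KO livers. DEN tumours were at 0.32, -0.50, -1.26, 0.24 and -0.33, and KO tumours at -0.20, -1.41, 0.46, 0.35 and -0.79. All tumours lay below all livers, and both tumour types overlapped. Wnt5b changed by -1.41 (SE 0.36, adjusted p = 0.0038) in KO and by -1.17 (SE 0.36, adjusted p = 0.029) in DEN tumours. The DEN call was lost without any of 7 mice (DEN mice 2, 3 and 5 and all 4 WT mice; -1.21 to -0.93, adjusted p up to 0.072), and both calls with the slide as a random block (adjusted p = 0.076 and 0.46).

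Wnt9a fell in DEN tumours and was not called in KO tumours against their livers. Its levels were -4.36, -4.48, -5.85, -3.47 and -5.41 in DEN tumours, against -2.39, -2.35, -3.02 and -2.92 in WT livers and -2.38, -2.59, -2.72 and -2.32 in KO livers. KO tumours were at -2.40, -1.52, -1.45, -4.22 and -1.53, that is above DEN tumours except for mouse 4. Wnt9a changed by -2.05 (SE 0.52, adjusted p = 0.010) in DEN tumours against WT livers and was higher in KO than in DEN tumours by 2.49 (SE 0.49, adjusted p = 0.00048), and the tumour effects differed by 2.32 (SE 0.74, adjusted p = 0.025), which was lost with normexp and quantile scaling (0.61, adjusted p = 0.057).

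Wnt1 and Wnt16 ended lower in KO than in DEN tumours. Wnt1, a canonical ligand, was at 0.59, 0.56, 1.01, 0.58 and 1.06 in DEN tumours and at -1.1, -2.05, -1.08, -0.83 and -1.44 in KO tumours. WT livers were at -0.68, -0.84, 0.04 and 0.32, and KO livers at -0.71, -0.78, -0.69 and -0.69. Each DEN tumour mouse lay above, and each KO tumour mouse below, every liver except that KO mouse 4 overlapped the lowest WT liver. Wnt1 rose by 1.05 (SE 0.26, adjusted p = 0.0091) in DEN tumours against WT livers, was lower by -2.06 (SE 0.25, adjusted p = 7.1e-06) in KO than in DEN tumours, and its tumour effects differed by -1.63 (SE 0.37, adjusted p = 0.004). The rise in DEN tumours did not pass with the mean of both Wnt1 probes (0.85, adjusted p = 0.096).

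Wnt16 was at -3.33, -1.32, -1.56, -2.30 and -2.31 in DEN tumours and at -4.12, -5.30, -3.13, -4.29 and -4.79 in KO tumours. KO livers were at -3.49, -3.36, -3.16 and -3.18, and WT livers at -2.74, -3.07, -2.71 and -2.80. The tumours overlapped through DEN mouse 1 and KO mouse 3. Wnt16 was lower in KO tumours by -2.16 (SE 0.37, adjusted p = 0.00016) against DEN tumours, which became -0.92 (adjusted p = 0.11) within scan day 1. Its change against KO livers was -1.03 (SE 0.39, adjusted p = 0.038), and the difference of the tumour effects was -1.69 (SE 0.56, adjusted p = 0.031). The call against KO livers was lost without any of 7 mice (all 4 KO liver mice and KO tumour mice 2, 4 and 5; adjusted p up to 0.10), and the difference without any of 4 (DEN mouse 3, KO liver mice 3 and 4 and WT mouse 2; adjusted p up to 0.058). Median scaling over probes measured on all arrays (-0.89, adjusted p = 0.073), normexp with quantile scaling (-0.24, adjusted p = 0.12), and leaving out the brighter KO tumour slide (-0.88, adjusted p = 0.12) also ended the call of Wnt16 against KO livers.

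**Figure D3:**
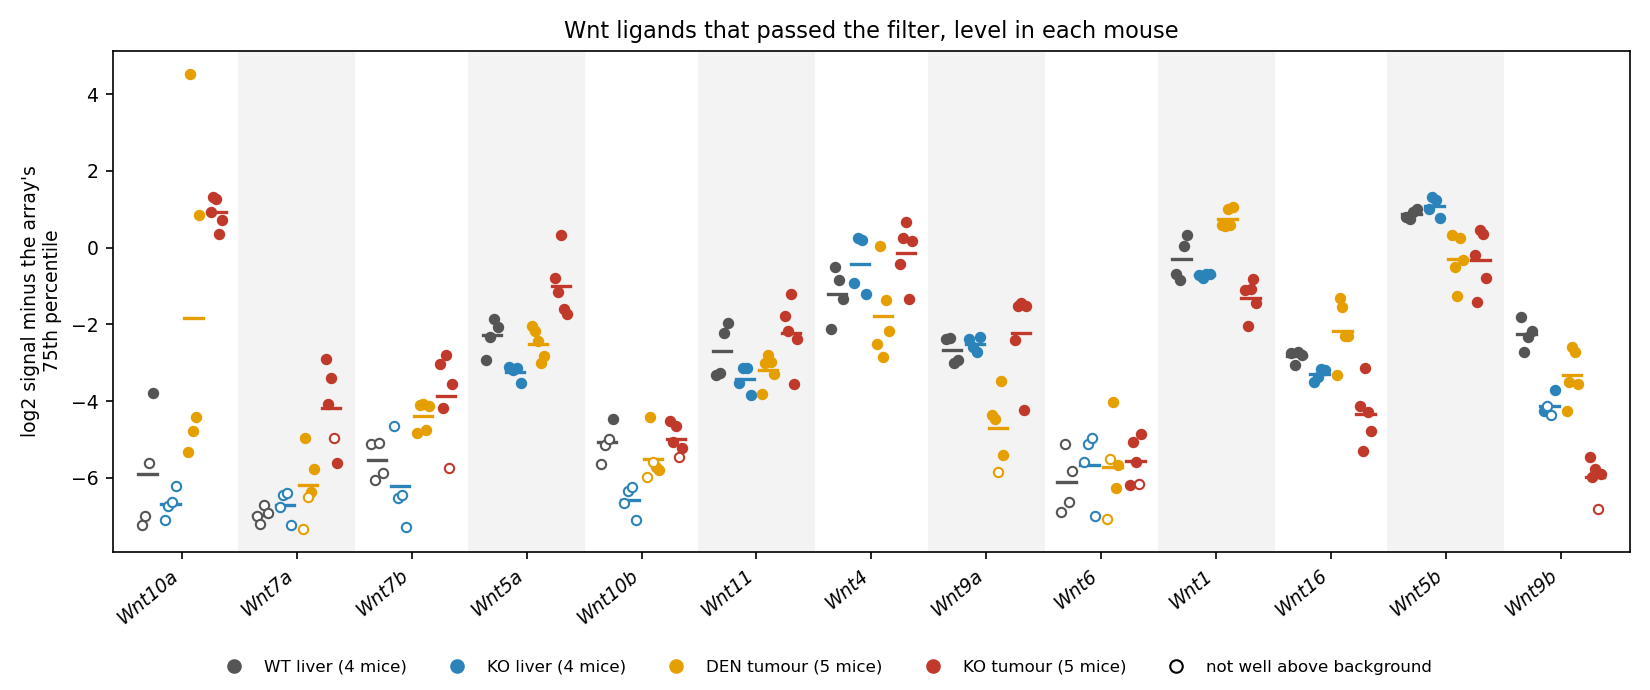
Level of each Wnt ligand that passed the filter (log2 intensity relative to the array's 75th percentile) in every mouse, by group, drawn as for the inhibitors. Wnt10a shows KO tumours between 0.36 and 1.32, DEN mice 2 and 5 at 4.54 and 0.85, and the other DEN mice at -4.42 or below; Wnt9b shows KO tumours below all other mice.

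Receptors: all 12 passed the filter. In KO tumours against KO livers 3 rose and 2 fell (median 0.54), in DEN tumours against WT livers 2 rose and 3 fell (median -0.14), and in KO against DEN tumours 5 were higher and 4 lower (median 0.19). The shares of all genes called higher and lower were 21.6% and 29.6%, 10.6% and 11%, and 19.9% and 37.5%, in the same order. Under a random slide block 2 higher and 2 lower passed against KO livers, none against WT livers, and 3 higher and 2 lower between the tumours. Fzd2 was at -2.99, -3.91, -2.74, -4.22 and -3.62 in KO tumours and at -6.90, -6.52, -6.08 and -7.32 in KO livers, without overlap. DEN tumours were at -6.23, -3.71, -5.33, -5.27 and -4.86, and WT livers at -6.40, -5.40, -5.33 and -4.82. Only DEN mouse 2 reached the KO tumours. Fzd2 rose by 3.20 (SE 0.45, adjusted p = 1.9e-05, at least 2.3-fold) against KO livers and was higher than in DEN tumours by 1.58 (SE 0.43, adjusted p = 0.0048), or 2.63 (adjusted p = 0.00056) within scan day 1. A dimmer probe of the gene gave 0.51 and 1.77.

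Fzd1 was higher in KO tumours (0.30 to 1.93) than in KO livers (-0.08 to 0.22) and DEN tumours (-1.26 to -0.11), with no overlap, by 1.17 (SE 0.28, adjusted p = 0.0021) and 1.96 (SE 0.26, adjusted p = 1.8e-05). Fzd6 rose by 0.94 (SE 0.24, adjusted p = 0.0035) against KO livers, a call lost with the slide as a random block (adjusted p = 0.11). Fzd10 was scattered. It was at -5.10, -7.99, -1.85, -3.57 and -4.50 in KO tumours, at -8.29, -7.79, -8.01, -8.03 and -8.31 in DEN tumours, at -7.11, -6.73, -1.91 and -7.47 in KO livers, and at -7.24, -7.41, -6.92 and -7.34 in WT livers. KO mouse 2 lay within the DEN range and the other KO tumours above it. Fzd10 was higher in KO than in DEN tumours by 3.48 (SE 1.0, adjusted p = 0.0072, at least 2.66-fold), a call lost within scan day 1 (3.32, adjusted p = 0.13), with normexp and quantile scaling (0.45, adjusted p = 0.12) and with the slide as a random block (3.54, adjusted p = 0.055).

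Fzd3 had its highest levels in DEN tumours, at -3.18, -4.2, -2.45, -2.53 and -3.14. WT livers were at -6.16, -6.63, -5.21 and -7.01, KO livers at -6.98, -5.10, -4.89 and -7.42, and KO tumours at -4.48, -4.61, -3.01, -6.13 and -4.89. DEN tumours overlapped no liver, and KO mouse 3 lay within their range. Fzd3 rose by 3.15 (SE 0.62, adjusted p = 0.0017, at least 4.21-fold) in DEN tumours against WT livers. The lower level in KO than in DEN tumours, -1.52 (SE 0.58, adjusted p = 0.035), was lost without any of 7 mice (DEN mice 1, 3, 4 and 5 and KO mice 2, 4 and 5; -1.54 to -1.14, adjusted p up to 0.096), within scan day 1 (-1.20, adjusted p = 0.19), with the slide as a random block (-1.66, adjusted p = 0.13) and without the brighter KO tumour slide (-0.93, adjusted p = 0.21). Against KO livers Fzd3 was not called (1.48), but it was with the stricter filter (adjusted p = 0.049), with median scaling (1.61, adjusted p = 0.041) and within scan day 1 (2.07, adjusted p = 0.027).

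Lrp5, a co-receptor for every canonical ligand, was at 1.45, 1.57, 2.06, 1.5 and 1.52 in DEN tumours and at 0.96, -0.01, 0.76, 0.65 and 0.43 in KO tumours. KO livers were at 0.44, 0.60, 0.53 and 0.51, and WT livers at 0.15, 0.43, 0.99 and 1.13. DEN tumours lay above all other mice. Lrp5 rose by 0.95 (SE 0.23, adjusted p = 0.0071) against WT livers and was lower in KO than in DEN tumours by -1.07 (SE 0.22, adjusted p = 0.00058). The difference of the tumour effects, -0.91 (SE 0.32, adjusted p = 0.042), was lost without any of 12 mice (DEN mice 2 to 5, KO liver mice 1 to 4, KO tumour mice 2 and 5 and WT mice 1 and 2; adjusted p up to 0.087). Lrp6 was higher in KO than in DEN tumours by 0.92 (SE 0.30, adjusted p = 0.015), with overlap, but its dimmer probe gave 0.089, and with the mean of both probes the change was 0.50 (adjusted p = 0.16). The Lrp6 call was also lost with the slide as a random block (0.66, adjusted p = 0.18).

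Fzd4 and Fzd8 fell in both tumour types. Fzd4, a receptor of endothelial and other cells, was at 0.12, 0.16, 0.33 and 0.39 in WT livers and at 0.41, 0.48, 0.48 and 0.49 in KO livers. In DEN tumours it was at -0.29, -1.31, -0.95, -0.58 and -1.07, and in KO tumours at -1.6, -1.82, -1.09, -0.72 and -1.32, so every tumour mouse lay below every liver. It changed by -1.77 (SE 0.23, adjusted p = 8e-06) in KO and by -1.09 (SE 0.23, adjusted p = 0.0028) in DEN tumours. Between the tumours it was not called with all mice and days pooled (-0.47), but within scan day 1 it was lower in KO tumours (-1.05, adjusted p = 0.0041), as it was without DEN mouse 2 (-0.59, adjusted p = 0.031) or KO mouse 4 (-0.62, adjusted p = 0.016). Of 11 endothelial markers, 3 were higher and 4 lower in KO tumours against KO livers, and 3 were higher and none lower in DEN tumours against WT livers; the part of endothelial cells in Fzd4 and Wnt9b was not tested.

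Fzd8 was at -2.23, -1.61, -1.3 and -1.51 in WT livers, at -2.31, -1.80, -2.09 and -2.18 in KO livers, at -3.10, -3.43, -3.24, -2.58 and -3.77 in DEN tumours and at -3.74, -4.43, -3.44, -4.33 and -4.67 in KO tumours. Tumours and livers did not overlap, and the tumour types overlapped each other. The changes were -2.03 (SE 0.28, adjusted p = 1.6e-05) in KO tumours, -1.56 (SE 0.28, adjusted p = 0.0009) in DEN tumours and -0.90 (SE 0.26, adjusted p = 0.0083) between them. The last was lost within scan day 1 (-0.59, adjusted p = 0.17), without the brighter KO tumour slide (-0.65, adjusted p = 0.064), with normexp and quantile scaling (-0.21, adjusted p = 0.063) and with the slide as a random block (adjusted p = 0.057).

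Fzd7 fell in DEN tumours, at -2.53, -2.67, -2.66, -2.44 and -3.44, against -1.55, -1.33, -1.24 and -1.48 in WT livers. KO tumours, at -1.55, -1.01, -1.16, -0.97 and -1.31, lay with the KO livers at -1.48, -1.20, -1.03 and -1.66. No DEN tumour mouse overlapped another group. Fzd7 changed by -1.35 (SE 0.21, adjusted p = 0.00031) in DEN tumours and was higher in KO than in DEN tumours by 1.55 (SE 0.20, adjusted p = 1.2e-05), and the tumour effects differed by 1.49 (SE 0.30, adjusted p = 0.0018). A dimmer probe of Fzd7 gave 0.12 between the tumours. Fzd5 was lower in KO than in DEN tumours by -0.91 (SE 0.25, adjusted p = 0.0057), which became -0.37 (adjusted p = 0.23) within scan day 1 and -0.093 (adjusted p = 0.10) with normexp and quantile scaling, and Fzd9 was called in no comparison at the settings above. Against KO livers Fzd9, not well above background on any KO liver array, was at 1.06, but 1.51 (adjusted p = 0.018) within scan day 1 and 1.2 (adjusted p = 0.035) with median scaling.

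Transcription factors: Lef1, which is both a partner and a target of β-catenin, rose in KO tumours, Tcf7 was higher in KO than in DEN tumours, Tcf7l2 depended on the probe, and Tcf7l1 was called in no comparison at the settings above. Its change against KO livers was -0.91 with all days pooled and -1.61 (adjusted p = 0.0019) within scan day 1, where it was also lower than in DEN tumours (-0.91, adjusted p = 0.048). Lef1 ran from -3.80 to -2.55 in KO tumours, above KO livers (-4.93 to -4.32), DEN tumours (-4.94 to -4.39) and WT livers (-4.47 to -3.83). It rose by 1.55 (SE 0.25, adjusted p = 6.6e-05) against KO livers and was 1.5 (SE 0.23, adjusted p = 7e-05) higher than in DEN tumours, and the tumour effects differed by 2.04 (SE 0.35, adjusted p = 0.00063). Its dimmer probe gave 1.54 and 0.66. Tcf7, known from T cells, was higher in KO than in DEN tumours by 1.78 (SE 0.35, adjusted p = 0.00048), beside the T and NK cell markers, of which 6 of 12 were higher and 3 lower in that comparison. Against KO livers it was called only within scan day 1 (0.82, adjusted p = 0.029) and in settings that left out KO tumour mouse 4.

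Tcf7l2, the main Tcf factor of hepatocytes, was read by 3 probes that did not move together. The brightest was at -0.51, -1.1, -0.97, -1.20 and -0.85 in DEN tumours and at -2.79, -1.96, -1.22 and -1.34 in WT livers. KO tumours were at -1.59, -1.92, -1.58, -1.56 and -1.88, and KO livers at -1.59, -2.0, -1.53 and -2.10. By this probe DEN tumours were the highest group, with changes of 0.90 (SE 0.27, adjusted p = 0.025) against WT livers and -0.78 (SE 0.25, adjusted p = 0.015) for KO against DEN tumours. The other probes gave -1.18 and -1.43 for the former and 1.59 and 1.5 for the latter, the opposite sign, so no direction is given for the gene. The brightest probe's call in DEN tumours was lost without DEN mouse 1 or WT mouse 1 or 2 (0.58 to 0.86, adjusted p up to 0.091), and its call between the tumours within scan day 1 (-0.71, adjusted p = 0.055).

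**Figure D4:**
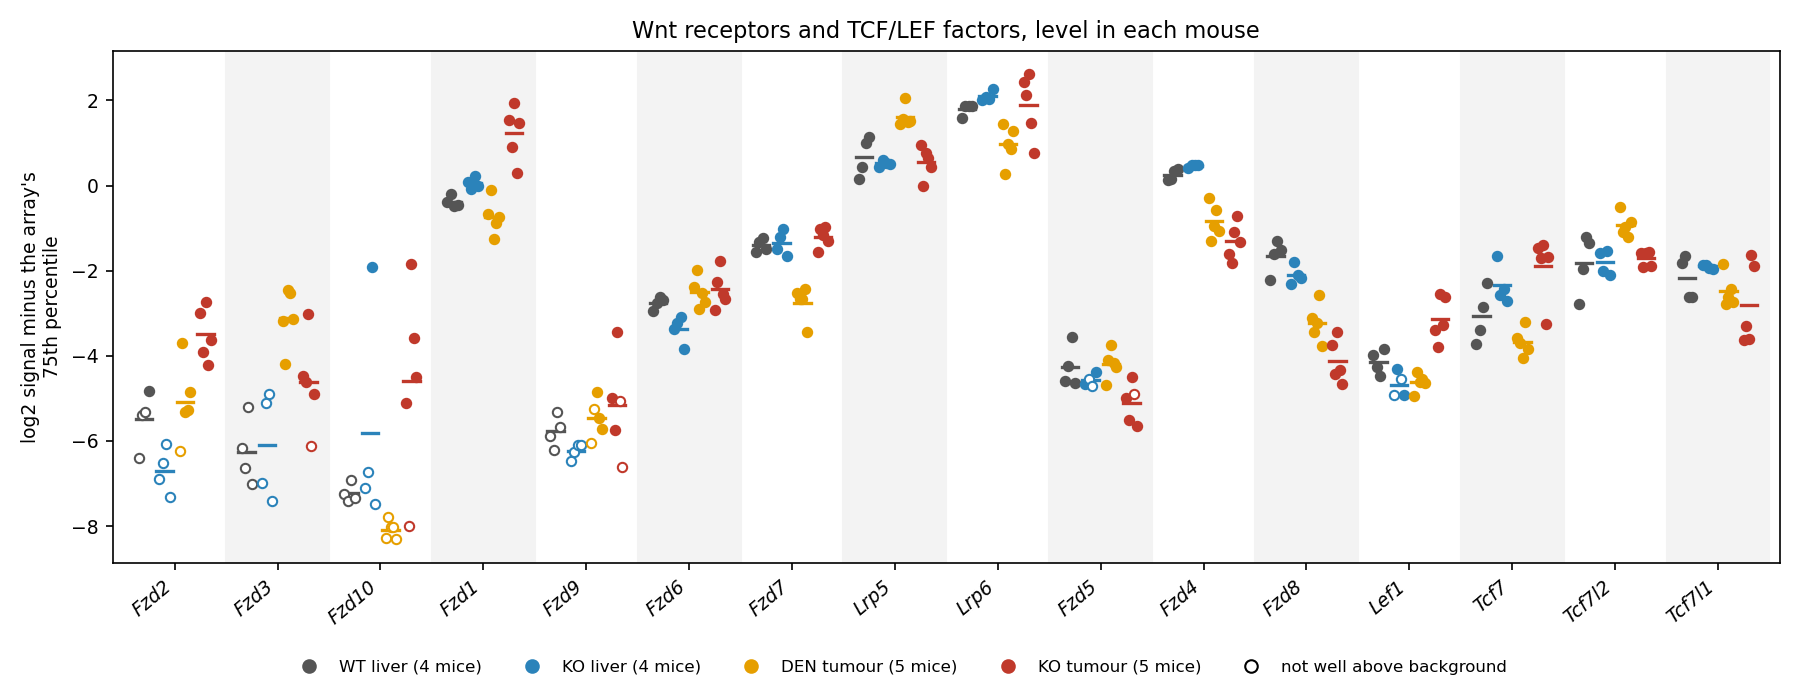
Level of each of the 12 receptors and 4 transcription factors (log2 intensity relative to the array's 75th percentile) in every mouse, by group, drawn as for the inhibitors. Fzd4 and Fzd8 show all tumours below all livers, Fzd7 shows DEN tumours below the other groups, and Lef1 shows KO tumours above them.

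The other pathway genes were counted from 8 lists with 68 tested genes. In KO tumours against KO livers 18 were higher (26.5%, beside 21.6% of all genes) and 24 lower (35.3%, beside 29.6%), with a median change of -0.21. In DEN tumours against WT livers 4 were higher (5.88%, beside 10.6%) and 21 lower (30.9%, beside 11%), with a median of -0.34. In KO against DEN tumours 26 were higher (38.2%, beside 19.9%) and 11 lower (16.2%, beside 37.5%), with a median of 0.51. The sharpest list was that of 10 perivenous liver genes, which hepatocytes near the central vein express under Wnt control: 9 were lower in KO tumours (median -3.43) and 8 in DEN tumours (median -4.11), and none higher in either. The largest calls by p in KO tumours were Cyp27a1 (-3.76), Cyp1a2 (-6.24) and Rhbg (-3.0), and in DEN tumours Slc1a2 (-6.74), Glul, the glutamine synthetase (-4.32), and Cyp27a1 (-3.18), with adjusted p at most 0.00016 for each. With the slide as a random block 4 of the 10 were called lower in KO tumours and none in DEN tumours. The fall came beside the hepatocyte markers, all 10 of which were lower in KO tumours than in KO livers but 1 of 10 in DEN tumours against WT livers.

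Of 6 tested R-spondins and surface proteins that regulate Frizzled turnover, 5 were lower and 1 higher in KO tumours, and 3 lower in DEN tumours. Rnf43, a ubiquitin ligase that removes Frizzled receptors, changed by -2.42 in KO (adjusted p = 6.4e-06) and -1.73 in DEN tumours (adjusted p = 0.00074). Lgr5, an R-spondin receptor, changed by -3.87 (adjusted p = 0.0024) and -3.28 (adjusted p = 0.019). Rspo3 fell by 1.69 and 1.83. Rspo1 by contrast was higher in KO tumours, by 2.57 (adjusted p = 0.039) against KO livers and 2.78 (adjusted p = 0.018) against DEN tumours. Its mean was -1.39 in KO tumours, near the -1.71 of WT livers, a pair that was not compared. KO livers averaged -3.96 with a wide spread (SD 2.5), and the probe was well above background on 2 of their 4 arrays. Wls, the carrier that takes Wnt ligands to the cell surface, rose alike in both tumour types, by 1.85 (SE 0.32) and 1.83 (SE 0.32), with a difference of 0.014 (SE 0.45, adjusted p = 0.98).

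In KO tumours, of 7 further extracellular regulators, 4 were higher than in KO livers and none lower: Cthrc1, a collagen-associated protein (4.65, adjusted p = 8.7e-05, at least 6.38-fold), Frzb, also called Sfrp3 (2.31, adjusted p = 0.00039), Dkkl1 (1.29, adjusted p = 0.0039) and Kremen2, a Dkk receptor (1.6, adjusted p = 0.013, with a bound under 1 and so no fold). In DEN tumours none rose and Kremen1 fell (-0.82, adjusted p = 0.013). Of 10 other receptors and polarity genes, 5 were higher and none lower in KO tumours, with Ror2, a receptor for Wnt5a, at 4.2 (adjusted p = 0.0002, at least 5.59-fold) and 4.39 against DEN tumours (adjusted p = 9.3e-05). Vangl1 rose in both, by 1.1 and 1.3.

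General target genes split. In KO tumours against KO livers 4 of 10 were higher and 3 lower (21.6% and 29.6% of all genes). Mmp7 (9.43, adjusted p = 6.2e-07, at least 558-fold), Sox9 (4.68, adjusted p = 9e-08) and Cd44 (3.73, adjusted p = 5.9e-07) led the rises. Axin2, the feedback target most widely used as a reading of β-catenin activity, changed by -2.18 (adjusted p = 0.00024) and Nkd1 by -3.05 (adjusted p = 3e-05). In DEN tumours against WT livers 2 of 10 were higher and 4 lower (10.6% and 11% of all genes). Axin2 changed there by -2.48 (adjusted p = 0.00038) and Sp5 by -5.21 (adjusted p = 0.00018). Sox9 averaged 0.31 in DEN tumours and -1.9 in WT livers, and Myc -1.77 and -3.39. Between the tumours 7 of 10 were higher in KO and 1 lower (19.9% and 37.5% of all genes), with Axin2 at 1.45 (adjusted p = 0.0037) and Sp5 at 3.13 (adjusted p = 0.0017). Sox9 is also in the bile duct list.

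Inside the cell the changes were of both signs. Of 13 cytoplasmic relay genes, 1 was higher and 4 lower in KO tumours, led by Apc, a scaffold of the β-catenin destruction complex (-3.0, adjusted p = 4.2e-05), and none was higher and 2 lower in DEN tumours. Apc was also lower in KO than in DEN tumours, by -3.52 (adjusted p = 8.5e-06). Of 9 nuclear partners, 2 were higher and 2 lower in KO tumours. Tle1, a co-repressor, changed by -1.89 (adjusted p = 5.8e-05), and Bcl9, a co-activator, by 1.97 (adjusted p = 0.0026, at least 1.5-fold). In DEN tumours none of the 9 was higher, and Bcl9l (-1.44, adjusted p = 0.005) and Chd8 (-0.81, adjusted p = 0.0067) were lower.

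**Figure D5:**
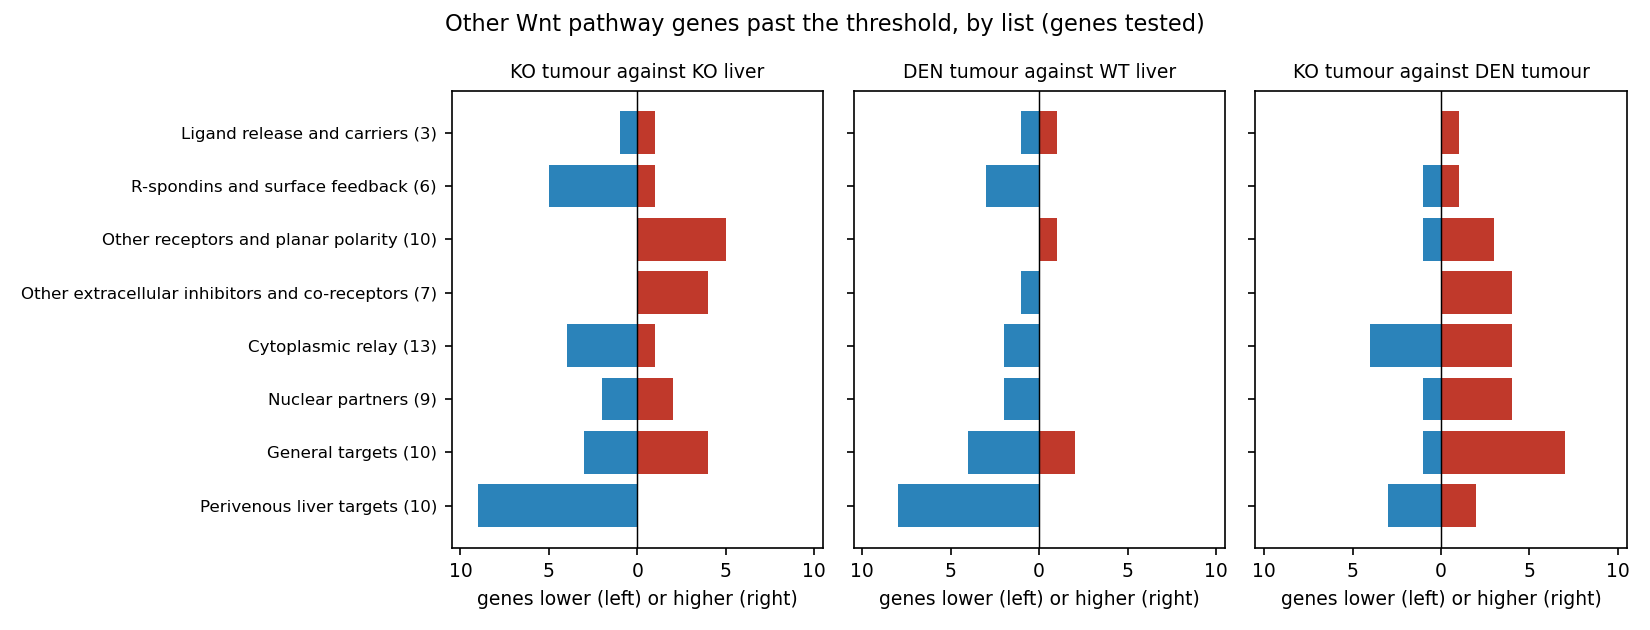
Number of genes called lower (left of 0) and higher (right of 0) in each of the 8 lists of other pathway genes, in 3 comparisons (adjusted p under 0.05, limma). In the perivenous list 9 of 10 genes are lower in KO tumours and 8 of 10 in DEN tumours; in the list of other extracellular inhibitors 4 of 7 are higher in KO tumours.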

How the data were processed

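RNA of 21 samples was hybridised to one-colour Agilent 4x44K arrays. Per the submitters' processing notes the authors used Agilent Feature Extraction 10.7.3.1. The deposited files hold a processed intensity per spot, background-corrected by the authors. The deposited series table gives the authors' log2 values; each column correlated at 0.9997 or better with its own array, and it served as an alternative. Outlier spots were left out, spots of a probe averaged as log2 intensity, and the array's 75th percentile over 39429 non-control probes subtracted. Symbols were updated through a RefSeq table (GRCm38.p6, names and promoter windows only); probe positions are the files' own (mm9). The brightest probe stood for each gene, and the gene was kept if that probe was well above background on at least 4 arrays. One limma 3.58.1 model (R 4.3.3, data.table version 1.17.8) with 4 group means was fitted over 23514 genes and 18 mice (14 residual and 2.62 prior degrees of freedom), two-sided. It was checked on simulated data with independent noise per mouse and no slide or scan-day effect, so that check does not bear on such effects. The members and all lists were chosen with earlier results of these data known. Per-mouse values are given for the 6 largest called rises and falls of each comparison and for members called in all 3 tumour comparisons; from other lists, up to 3 risen and 3 fallen genes with the smallest adjusted p are named, with additions for their role. Alternatives covered scaling, background correction, the filter, probes, slide, scan day, tumours as samples and leaving out each mouse. The number of arrays limits the precision.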

Additional observations from a re-analysis of the deposited data

Results flagged for a closer look

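The step from liver to tumour differed between the KO and the DEN mice, by limma's test of the difference itself (18 mice), for 16 genes. The change, KO minus DEN, was above 0 for Dkk2 (5.40), Sfrp1 (5.31), Sfrp4 (3.70), Wif1 (2.93), Fzd2 (2.79), Dkk3 (2.50), Wnt5a (2.46), Wnt9a (2.32), Lef1 (2.04), Wnt10b (2.04), Wnt11 (1.69), Fzd1 (1.52) and Fzd7 (1.49). It was below 0 for Wnt16 (-1.69), Wnt1 (-1.63) and Lrp5 (-0.91). Of these, Wnt9a, Fzd7, Wnt1 and Lrp5 were called against liver in the DEN arm and not in the KO arm. Dkk2 alone passed with the slide as a random block.

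Some single mice lay far from the rest of their group by Dixon's test. In KO tumours it was mouse 4 for Dkk3 (2.81), Tcf7 (-3.25) and Wif1 (-1.03), on the brighter slide. In DEN tumours they were mouse 1 for Sfrp5 (-5.48), mouse 2 for Wnt10b (-4.42), mouse 3 for Lrp5 (2.06) and mouse 5 for Fzd7 (-3.44). In KO livers they were mouse 3 for Fzd10 (-1.91) and mouse 4 for Wnt5a (-3.54), and in WT livers mouse 1 for Lrp6 (1.58). That is 10 of 152 groups tested, and chance alone marks about 1 in 20.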

How the results depend on the processing

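No paired analysis was possible because no label ties a tumour to a liver of the same animal. With the slide as a random block (correlation 0.382) the calls were 11 in KO tumours against KO livers (of 20), 0 in DEN tumours against WT livers (of 11), 18 between the tumours (of 26), 0 between the livers (of 3) and 1 for the difference of the tumour effects (of 16); unadjusted p under 0.05 held in limma for 18, 7, 23, 1 and 12. Over all 23514 genes the slide block left 6664, 422, 9167, 11 and 810 calls, in the same order. Each group has slides of its own, so slide and group cannot be told apart. The slide fit took each of the 21 arrays as a sample, so tumours of the same mouse counted separately there. Each liver group lay on a single slide, and the slides of a tumour group also differed in scan day. Between the livers 1 call was left under the stricter filter (fewer genes tested) and 1 with each tumour as a sample. Leaving out each mouse in turn gave 18 to 25, 8 to 12, 24 to 29, 2 to 4 and 13 to 20 calls. With the mean of all probes Tcf7l2 turned to -0.57 (adjusted p = 0.086) in DEN tumours, 0.77 (adjusted p = 0.0058) between the tumours and 0.90 (adjusted p = 0.043) for the difference of the tumour effects; its probes disagree. Normexp with quantile scaling moved the median of all genes from -0.33 to -0.017 between the tumours, from -0.22 to -0.0066 in KO tumours and from -0.25 to -0.0055 for the difference, and shrank the changes of dim genes. Over all genes, calls higher and lower became 5768 and 6228 (from 4670 and 8821), 5741 and 5408 (from 5078 and 6955) and 3464 and 3330 (from 2983 and 4297). The 5 inhibitor rises between the tumours held under both other scalings, and 4 of the 5 against KO livers under normexp. Scan day 1 alone gave 26 and 24 calls against KO livers and DEN tumours, beside 12932 and 11945 of all 23514 genes. The authors' values gave 20 and 26, and day fits could not be made with WT livers. For dim genes a bound replaces the fold where no array of the lower group was well above background.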

Other observations

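One DEN mouse lay at the edge of its group for several members. With 5 mice each will do so for some genes, and how often was not compared between mice. DEN mouse 2 was the highest of the 5 DEN mice for Wnt10a (4.54), Sfrp1 (-1.74), Dkk3 (1.75), Fzd2 (-3.71), Wnt4 (0.05), Wnt7a (-4.95), Wnt10b (-4.42) and Wnt16 (-1.32). It was also the highest for Fzd10 (-7.79), and the lowest for Fzd4 (-1.31), Lrp6 (0.26), Fzd3 (-4.2), Wnt1 (0.56) and Dkk4 (-7.62). Dkk2, at -7.66, and Wif1, at -7.26, lay within the range of the other DEN mice there. For most genes where it was highest or lowest, the KO tumour mean lay on the same side of the DEN mean. For Wnt16 and Lrp6 it lay on the opposite side, so DEN mouse 2 did not lean toward the KO tumours in all of them. Its mean marker level was also the highest of the 5 for stellate cells and fibroblasts (1.49, the next 0.25), smooth muscle (0.75, the next -0.70) and bile duct (-1.07, the next -1.70). The same held for endothelial (0.62, the next 0.24) and T and NK cell markers (-1.22, the next -1.24). The endothelial median was lower in KO tumours (-0.86) than in DEN tumours (0.16), so on that list the mouse lay away from the KO tumours. The part of these cells in the values was not tested. These genes were picked after their values were seen, and the pattern was not tested.

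Outside the members, 4 of the 68 tested pathway genes were higher and 1 lower in KO than in WT livers (7.35% in all, beside 8.52% of all genes; median 0.037). Ccnd1, which encodes cyclin D1, was higher by 2.26 (SE 0.47, adjusted p = 0.0095), Rhbg, an ammonium transporter of perivenous hepatocytes, by 1.8 (SE 0.41, adjusted p = 0.014), Csnk1a1 by 0.73 (adjusted p = 0.029) and Csnk1e by 0.95 (adjusted p = 0.031), both kinases that act on the pathway. Sox9 was lower (-1.4, SE 0.39, adjusted p = 0.036). WT and KO livers differ in slide and scan day, so these cannot be told apart from genotype.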
